A study of Mus musculus with 69 samples.

Results

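Ccl2, Ccl7, Ccl8 and Ccl12 are the monocyte chemoattractant genes of a chemokine cluster on mouse chromosome 11. They were taken by symbol from the expression tables of bone marrow-derived macrophages (BMDMs), where they are 4 of the 24537 genes listed in each of 3 tables, and from the allele columns of 2 F1 crosses. The cells came from bone marrow of female mice, 8 to 12 weeks old by the study's methods, grown for 7 days in medium with M-CSF, the growth factor of macrophages. They were left untreated (basal) or given 20 ng/ml IL-4, a type 2 cytokine, and the question was how the response to IL-4 varies with genetic background. The first table holds cells of 5 strains, which are SPRET/EiJ (SPRET), PWK/PhJ (PWK), C57BL/6J (C57), NOD/ShiLtJ (NOD) and BALB/cJ (BALB), basal and after 24 hours of IL-4, with 3 libraries in each group except 2 for basal PWK. The second is a time course of C57 and SPRET, basal and after 1, 6 and 24 hours, with 2 libraries in each group. The third has the same times and numbers for Egr2 fl/fl cells (Egr2WT) and for Egr2 fl/fl cells that carry LyzM-Cre (Egr2MKO), a Cre active in myeloid cells that deletes the floxed transcription factor gene Egr2 there. Both genotypes carry the floxed alleles, and the control lacks Cre. The F1 cells came from C57 x SPRET and C57 x NOD crosses, basal and after 24 hours of IL-4, with 2 libraries in each group. The study's methods call the libraries biological replicates, but no label says that those of a group came from separate mice, so p-values measure the spread between these libraries.

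The monocyte chemoattractant proteins are small secreted CC chemokines, named for the adjacent cysteines near the start of the mature protein. They act through G protein-coupled receptors and recruit monocytes from blood into tissue. Ccr2, the main receptor of inflammatory monocytes, responds to Ccl2, Ccl7 and Ccl12, while mouse Ccl8 is known as an agonist of Ccr8. Macrophages both make these proteins and respond to them.

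In mm10, all 4 genes lie on the plus strand of chromosome 11. Ccl2 is at chr11:82035577-82037452, Ccl7 at chr11:82045712-82047523, Ccl12 at chr11:82101845-82103399 and Ccl8 at chr11:82115185-82116799. The start of Ccl7 lies 10.14 kb after that of Ccl2, Ccl12 starts 56.13 kb further on, and Ccl8 another 13.34 kb after Ccl12. The coding transcript of each gene in GENCODE vM21 has 3 exons. The coding sequence is 444 bases long in Ccl2 and 291 in both Ccl7 and Ccl8, against 312 in Ccl12. The stretches below are 54 coding bases around the adjacent cysteine codons, which define the family and stand in capitals. They are shown because the genes are related and short reads could be shared between them. Each stretch spans the junction of exons 1 and 2.
Ccl2: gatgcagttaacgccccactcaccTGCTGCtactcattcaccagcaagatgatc
Ccl7: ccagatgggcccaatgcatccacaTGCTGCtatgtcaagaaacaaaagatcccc
Ccl8: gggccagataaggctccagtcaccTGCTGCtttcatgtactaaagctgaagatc
Ccl12: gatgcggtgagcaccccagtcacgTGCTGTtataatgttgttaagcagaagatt
Within these stretches, Ccl8 and Ccl12 had 64.8% of bases in common and Ccl7 and Ccl8 37.0%. Over the aligned coding sequences, identity ranged from 49.4% for Ccl2 with Ccl8 to 66.7% for Ccl7 with Ccl8. None of the 739 words of 75 bases (the read length) in the Ccl2 transcript occurred in a transcript of another gene. This was also true of the 727 words of Ccl7, the 437 of Ccl8 and the 463 of Ccl12, so in the C57 reference a full-length exact read belongs to 1 of the genes.

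Promoter sequence was at hand for 2 of the 4 genes, Ccl12 and Ccl8, from the RefSeq table of build GRCm38.p6. The 250 bases before each start are shown since both genes were induced in every strain of the first table. In the time course of the second table, no rise of either gene passed the test in SPRET. Capitals mark matches, on either strand, to the letters TATAAAA, the box of that name, searched after the sequences had been seen, and AGGAAGT (PU.1, a factor of the myeloid lineage), which do not overlap.
Ccl12, chr11:82101595-82101844, plus strand: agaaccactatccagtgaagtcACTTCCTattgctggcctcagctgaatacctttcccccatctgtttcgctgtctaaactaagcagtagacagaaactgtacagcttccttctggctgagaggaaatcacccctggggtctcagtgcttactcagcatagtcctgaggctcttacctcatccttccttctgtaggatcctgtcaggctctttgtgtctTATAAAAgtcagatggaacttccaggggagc
Ccl8, chr11:82114935-82115184, plus strand: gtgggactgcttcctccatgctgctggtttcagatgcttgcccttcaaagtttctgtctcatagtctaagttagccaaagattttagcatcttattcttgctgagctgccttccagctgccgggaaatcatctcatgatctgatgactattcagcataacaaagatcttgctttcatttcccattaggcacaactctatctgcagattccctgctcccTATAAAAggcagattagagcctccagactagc
The letters TATAAAA stood 31 bases before the start of Ccl12 and 32 bases before that of Ccl8, and 5.0% of the 32851 promoter windows of the table hold them. AGGAAGT was found once, in the Ccl12 window, and in 7.7% of all windows. Neither window held TTCNNNGAA or TTCNNNNGAA (STAT), GGGNNTTTCC (NF-kB type), TGANTCA (AP-1), GNGTGGGNG (Egr) or TTGCNNAA (C/EBP). Of all windows, 7.0%, 5.9%, 1.4%, 6.7%, 12.7% and 9.6% held these in the same order. Aligned end to end, the windows of Ccl12 and Ccl8 were 57.5% identical.

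The authors' tables give TPM, a transcript level that is scaled for gene length and for the size of each library. By the column headers, libraries held 7.02 to 22.5 M tags (M, 10 to the power of 6) in the strain table, 5.70 to 24.0 M in the time course and 4.69 to 32.9 M in the Egr2 table. Values of a gene fall on whole multiples of what 1 read is worth, so the reads behind a TPM can be read off. In the Egr2 table, the header totals did not follow this worth. The second Egr2MKO library at 6 hours listed 16.0 M tags, and 1 read was worth 1.68 TPM of Ccl8. The second basal Egr2MKO library listed 4.69 M tags, and 1 read was worth 0.191 TPM of Ccl8. All 7 macrophage markers listed reached 1 TPM in 8 of the 10 groups of the strain table and 6 of them in basal PWK and in SPRET after IL-4, with summed levels between 9325 and 30188 TPM. Markers of lymphocytes summed to at most 0.786 TPM. Those of endothelium summed to at most 10.2 TPM, in basal PWK. Markers of mast cells, basophils and eosinophils summed to 4.80 to 6.58 TPM in basal SPRET and to 0.854 to 1.64 TPM in basal C57. In the time course they summed to 14.9 to 15.9 TPM in basal SPRET and to 0.554 to 0.728 TPM in basal C57. Among the 6 fibroblast and stroma markers, Col1a1, Col1a2 and Col3a1 had mean levels of at most 0.06 TPM. Dcn and the calgranulin genes differed between strains. The 6 fibroblast and stroma markers summed to between 204 and 212 TPM in basal PWK against 4.84 to 5.91 TPM in basal C57, nearly all of it Dcn, and the 6 neutrophil markers to between 548 and 553 TPM against 106 to 130.1 TPM, nearly all of it S100a8 and S100a9. In PWK, 3 of the 6 fibroblast and stroma markers reached 1 TPM, both basal and after IL-4, against 1 in each other strain. These 6 summed to 106 to 113 TPM in PWK after IL-4. The neutrophil markers were also high in basal SPRET, at 343 to 404 TPM. With IL-4 they were at 16.7 to 24.1 TPM in C57, at 17.9 to 19.8 TPM in BALB (52.9 to 60.0 TPM without it), at 15.1 to 18.9 TPM in NOD (40.8 to 52.5 TPM without it), at 249 to 274 TPM in SPRET and at 547 to 598 TPM in PWK. In the C57 time course they went from 66.2 to 94.1 TPM without IL-4 to 6.35 to 7.97 TPM at 24 hours. The part of these markers in the results was not tested. Fewer cells that express a gene and less RNA per cell cannot be told apart in such bulk RNA.

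In the strain table, the mean level of each of the 4 genes was higher with IL-4 (24 hours) than without it in every strain. Ccl2, the founding member, stood at 9.99, 4.79 and 8.41 TPM in the basal C57 libraries and at 114, 118 and 85.9 TPM after IL-4. Its BALB levels were 1.88, 1.92 and 1.26 TPM before and 10.6, 8.52 and 8.71 TPM after IL-4. The lowest C57 library after IL-4 was thus above all BALB libraries. In NOD, Ccl2 was already at 41.1, 46.0 and 42.5 TPM without IL-4 and reached 86.6, 84.1 and 86.8 TPM. The basal PWK libraries had 63.1 and 41.9 TPM and the IL-4 libraries 239, 279 and 254 TPM. SPRET stayed lowest, with 0.173, 0.510 and 0.656 TPM, or 2 to 8 reads, before IL-4 and 3.92, 3.78 and 3.93 TPM after it.

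Ccl7, which binds several chemokine receptors, stood at 6.31, 6.30 and 5.74 TPM in basal C57 and at 331, 322 and 269.7 TPM after IL-4. BALB cells had 1.33, 0.840 and 0.921 TPM and then 14.3, 11.6 and 12.6 TPM. Their highest library after IL-4 was below the lowest basal library of NOD. Levels in NOD were 51.5, 51.2 and 49.0 TPM before and 103, 88.1 and 90.2 TPM after IL-4. PWK had 32.9 and 33.0 TPM and then 207, 248 and 223 TPM. In SPRET, Ccl7 went from 0.524, 0.514 and 0.579 TPM to 5.16, 4.86 and 5.62 TPM.

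Ccl8 was the most abundant of the 4 in C57. Its basal libraries had 62.2, 56.7 and 61.9 TPM and the IL-4 libraries 1102, 1272 and 1088 TPM. In BALB it was at 39.8, 37.2 and 37.0 TPM and then at 102, 95.4 and 105 TPM. NOD and PWK, which were high for Ccl2 and Ccl7 without IL-4, were low for Ccl8. NOD had 14.9, 19.4 and 14.7 TPM before and 108, 102 and 95.5 TPM after IL-4, and PWK 7.99 and 12.1 TPM before and 362, 388 and 393 TPM after. SPRET had 1.51, 1.75 and 2.85 TPM and then 8.64, 9.15 and 10.1 TPM.

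Ccl12, which mouse cells use beside Ccl2 as a ligand of Ccr2, was the least abundant without IL-4. C57 libraries held 3.64, 2.20 and 3.48 TPM before and 101, 102 and 84.6 TPM after IL-4. The basal values of BALB were 0.284, 0.502 and 0.517 TPM, those of PWK 0.317 and 0.772 TPM and those of SPRET 0.652, 0.385 and 0.247 TPM, each from 2 to 5 reads. After IL-4, BALB had 6.99, 8.30 and 6.73 TPM, PWK 25.7, 22.8 and 20.8 TPM and SPRET 11.8, 10.5 and 11.5 TPM. NOD alone began above C57, at 8.38, 7.63 and 7.00 TPM, and it ended at 23.5, 20.2 and 16.1 TPM.

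**Figure D1:**
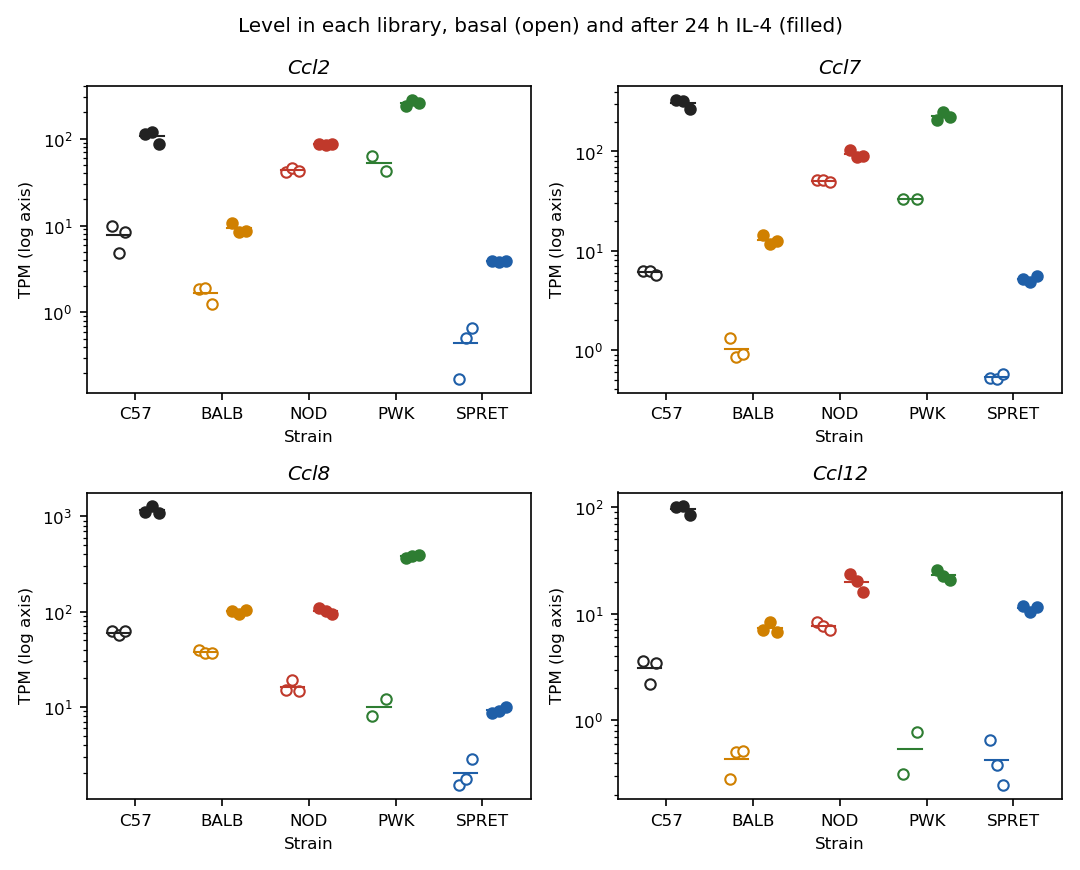
TPM on a log axis (y) of Ccl2, Ccl7, Ccl8 and Ccl12 in each library of the 5 strains (x), basal as open and 24 hours of IL-4 as filled points, with a bar at the group mean. The bar of the IL-4 group lies above the basal bar of the same strain in all 4 panels, and NOD starts high for Ccl2 and Ccl7 but not for Ccl8.

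Changes were tested with limma on log2(TPM + 1) over the 11907 genes that reached 1 TPM in 2 or more libraries, and all 4 members did. Calls needed an adjusted p under 0.05 and a change of over 2-fold. Fold changes are on this log2 scale and understate those of low genes. IL-4 raised the members in 18 of 20 tests (4 genes in 5 strains), and the 2 others had the same sign. All 4 rose in C57, BALB, PWK and SPRET, and Ccl8 and Ccl12 rose in NOD. With a pseudocount of 5 TPM, Ccl2 (0.71) and Ccl7 (0.88) in SPRET and Ccl12 in NOD (0.97) were under 2-fold. Over all genes tested, 3.94% were called for SPRET, 3.8% for C57, 2.08% for BALB, 2.08% for PWK and 1.19% for NOD. The median change over the members was highest in C57 (4.40), followed by PWK (3.36), BALB (2.24), SPRET (1.90) and NOD (1.12), where the medians of all genes tested lay between -0.11 and 0.12.

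On this scale, C57 gave the largest rises for 3 of the genes. For Ccl12 this depended on the pseudocount, as the ratio of mean TPM was 42.4 in PWK and 30.8 in C57. Ccl7 rose by 5.43 ± 0.09 (SE, adjusted p = 1.31e-23), Ccl12 by 4.57 ± 0.15 (adjusted p = 1.90e-18) and Ccl2 by 3.65 ± 0.18 (adjusted p = 7.54e-15) on the log2 scale. For Ccl8 the largest rise was that of PWK, 5.13 ± 0.14, against 4.23 ± 0.13 in C57 (adjusted p = 3.07e-19 and 6.02e-19). BALB rises ranged from 1.38 ± 0.13 for Ccl8 to 2.77 ± 0.09 for Ccl7, and SPRET rises from 1.77 ± 0.18 for Ccl2 to 3.11 ± 0.15 for Ccl12. In NOD, the changes of Ccl2 (0.98 ± 0.18, adjusted p = 0.000143) and Ccl7 (0.87 ± 0.09, adjusted p = 5.85e-08) were under 2-fold. Without the second basal NOD library, Ccl2 passed with 1.02. The rise of Ccl8 in NOD was 2.58 ± 0.13 and that of Ccl12 1.26 ± 0.15. In TPM, the mean of Ccl7 after IL-4 was 50.3 times the basal mean in C57 and 1.85 times in NOD.

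**Figure D2:**
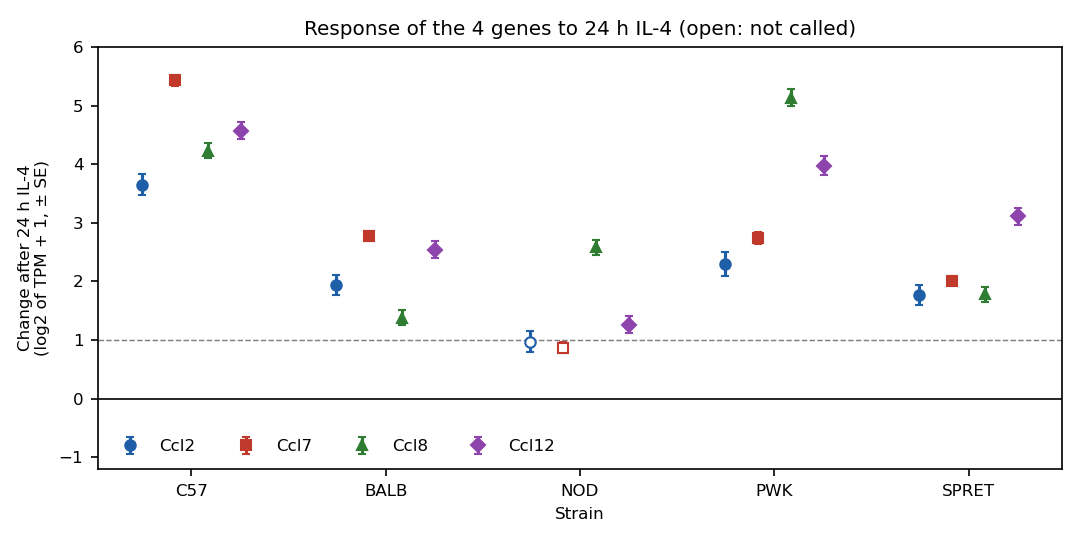
Change after 24 hours of IL-4 (y, log2 of TPM + 1, with SE bars) of the 4 genes in each strain (x), where the dashed line marks 2-fold and open symbols were not called. C57 holds the largest values for Ccl2, Ccl7 and Ccl12, PWK that for Ccl8, and NOD has the only 2 open symbols, for Ccl2 and Ccl7.

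Without IL-4, 15 of 16 differences from C57 were called, 5 higher and 10 lower. BALB was lower for Ccl2, Ccl7 and Ccl12, with Ccl8 at -0.65 ± 0.13 (adjusted p = 0.000184), in a comparison that called 4.81% of all genes. NOD was higher for Ccl2 (2.39 ± 0.18), Ccl7 (2.86 ± 0.09) and Ccl12 (1.09 ± 0.15) and lower for Ccl8 (-1.83 ± 0.13), where 16.9% of genes were called. PWK was higher for Ccl2 (2.64 ± 0.20) and Ccl7 (2.25 ± 0.10) and lower for Ccl8 (-2.49 ± 0.14) and Ccl12 (-1.41 ± 0.16), where 13.3% were called. All 4 genes were lower in SPRET, by 1.51 for Ccl12 up to 4.36 for Ccl8, where 18.1% were called. The C57 libraries are shared by these comparisons. Thus the pair Ccl2 and Ccl7 lay above C57 in NOD and PWK while Ccl8 lay below it in the same cells. With a pseudocount of 5 TPM, only 9 of the 16 were called, since Ccl2 and Ccl7 in BALB and Ccl12 in all 4 strains fell under 2-fold. The call on Ccl12 in NOD was also lost without the second basal C57 library, at 0.92.

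After IL-4, 14 of 16 differences from C57 were called, 13 lower and 1 higher. Ccl8 in SPRET was furthest from C57, at -6.81 ± 0.13 (adjusted p = 4.12e-24), followed by Ccl7 in SPRET at -5.63 ± 0.09 (adjusted p = 1.55e-25). BALB was lower for all 4 genes, by 3.37 to 4.48. The single higher value was Ccl2 in PWK, at 1.28 ± 0.18 (adjusted p = 7.10e-07). Ccl2 in NOD did not pass the test, at -0.29 with a 95% interval from -0.65 to 0.08, and Ccl7 in PWK was at -0.44 ± 0.09. Of all genes, 20.6% were called for SPRET, 13.2% for NOD, 12.2% for PWK and 5.39% for BALB.

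The order of the strains by mean TPM thus differed between the genes. Basal Ccl2 was highest in PWK and NOD, whose difference was 0.25 with a 95% interval from -0.16 to 0.65, followed by C57, BALB and SPRET. Basal Ccl8 followed the order C57, BALB, NOD, PWK and SPRET. For basal Ccl12, the neighbours PWK and BALB (0.10, interval -0.24 to 0.43) and BALB and SPRET (0.01, interval -0.29 to 0.31) did not differ beyond their spread. After IL-4, neighbours that did not differ beyond their spread were C57 and NOD for Ccl2, NOD and BALB for Ccl8 (0.02, interval -0.25 to 0.28) and PWK and NOD for Ccl12 (0.21, interval -0.09 to 0.51). The mean of the highest strain was 118 times that of the lowest for basal Ccl2 and 93.8 times for basal Ccl7.

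The response itself was compared with that of C57 as an interaction. All 14 called differences were negative, that is, the other strain changed less on the log2(TPM + 1) scale. BALB, NOD and SPRET differed from C57 for all 4 genes and PWK for Ccl2 and Ccl7, while 1.49%, 2.47%, 3.45% and 2.26% of all genes were called in these comparisons. The largest was Ccl7 in NOD, at -4.56 ± 0.13 (adjusted p = 3.12e-18), and the smallest called was Ccl2 in PWK, at -1.35 ± 0.26 (adjusted p = 0.000566). Some calls depended on the pseudocount. With 0.1 TPM, SPRET was at -0.82 for Ccl2 (adjusted p = 0.099) and at -0.43 for Ccl12 (adjusted p = 0.384), and with 5 TPM, Ccl2 in PWK was at -0.92, so these 3 were not called. As a ratio of mean TPM, the rise of Ccl12 was 26.4 in SPRET, 16.9 in BALB and 30.8 in C57. Ccl8 in PWK had the opposite sign, at 0.90 ± 0.19 (adjusted p = 0.00139, under 2-fold), and it passed without the second basal PWK library, at 1.17. Ccl12 in PWK was at -0.60, with an interval from -1.05 to -0.15 and an adjusted p of 0.0519. Ccl2 in NOD and C57 ended within 0.29 of each other and began 2.39 apart.

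The mix of the 4 transcripts also differed between strains in the strain table. Summed over the 4 genes, C57 went from 77.2 ± 6.40 TPM (SD, n = 3) to 1663 ± 143 TPM (n = 3), NOD from 118 ± 5.72 TPM (n = 3) to 301 ± 17.2 TPM (n = 3) and SPRET from 3.45 ± 0.783 TPM (n = 3) to 29.7 ± 1.43 TPM (n = 3). Ccl8 made up 78.2% ± 2.66 of the basal sum in C57 and 92.4% ± 0.744 in BALB, but 13.8% ± 1.56 in NOD and 10.7% ± 4.37 in PWK (SD, n = 2 in PWK and 3 elsewhere). In basal PWK, Ccl2 held 54.1% ± 9.08 of the sum. After IL-4, the share of Ccl8 was 69.4% ± 2.24 in C57, 43.0% ± 1.45 in PWK and 33.8% ± 0.808 in NOD. Ccl12 took the largest share in SPRET, 38.0% ± 1.73 (SD, n = 3), and at most 6.59% in the other strains. TPM is per length, so these are shares of transcripts. The mix within a strain differed between the tables as well. In the time course at 24 hours, Ccl8 held 33.0% ± 0.689 of the sum in C57 (SD, n = 2). In SPRET, Ccl2 held 82.8% ± 6.56 there (SD, n = 2) and Ccl12 was listed at 0.

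In the time course of C57, Ccl2 and Ccl7 were near their highest level after the first hour. Ccl2 was at 24.4 and 34.0 TPM without IL-4, at 212 and 236 TPM after 1 hour, at 254 and 253 TPM after 6 hours and at 199 and 216 TPM after 24 hours. Ccl7 stood at 8.57 and 14.3 TPM, then at 288 and 306, 309 and 294, and 361 and 384 TPM. For neither gene did a later time differ from the one before it, with changes of 0.18 and -0.29 for Ccl2 and 0.02 and 0.30 for Ccl7 (adjusted p of 0.345 or more). Ccl12 rose in steps, from 1.39 and 2.19 TPM to 6.86 and 9.05, then to 32.8 and 33.0 TPM at 6 hours, and was at 15.8 and 13.0 TPM at 24 hours. Its step from 1 to 6 hours was 1.93 ± 0.27 (adjusted p = 0.000355) and that from 6 to 24 hours -1.15 ± 0.27 (adjusted p = 0.00616), in steps that called 1.36% and 3.58% of genes. Ccl8 moved late. It was at 140.4 and 134 TPM, at 151 and 132 TPM after 1 hour, at 169 and 178 TPM after 6 hours and at 277 and 309 TPM after 24 hours.

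SPRET cells had far fewer of these transcripts at every time. Ccl2 was at 0.942 and 1.50 TPM, then at 9.06 and 7.22, 7.71 and 13.4, and 17.3 and 14.3 TPM. Ccl7 was listed at 0 and 0.817 TPM, reached 14.2 and 12.4 TPM after 1 hour and was at 3.06 and 4.01 TPM after 6 hours and at 4.21 and 2.06 TPM after 24 hours. Its fall from 1 to 6 hours was 1.66 ± 0.29 (log2 change of -1.66, adjusted p = 0.000898), in a step that called 3.4% of genes, against 1.85% for the next step. Ccl8 never passed 1.09 TPM, or 5 reads. Ccl12 had at most 0.831 TPM, or 4 reads, and was listed at 0 in both basal libraries and both libraries at 24 hours. At that depth, 3 reads would have been worth 0.370 and 0.926 TPM of Ccl12 at 24 hours, so C57 was at least 22.2-fold higher there by the mean of these floors, which cover counting error only.

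Within the C57 time course, 3 members were called after 1 hour, 3 after 6 hours and 4 after 24 hours, where 0.877%, 2.13% and 5.76% of the 12088 genes tested were called. In SPRET, Ccl2 and Ccl7 were called at each time, where 1.89%, 4.57% and 5.62% of genes were called, and Ccl8 and Ccl12 at none. Together these were 16 of 24 tests. The call on Ccl12 in C57 at 1 hour was lost with a pseudocount of 0.1 TPM (adjusted p = 0.331) and of 5 TPM (0.93), and those on Ccl7 in SPRET at 6 and 24 hours with 5 TPM (0.66 and 0.58). The rise of Ccl7 after 1 hour was 4.62 ± 0.29 in C57 (adjusted p = 5.75e-07) and 3.41 ± 0.29 in SPRET (adjusted p = 4.22e-06). Ccl8 rose in C57 after 24 hours only, by 1.09 ± 0.34 (adjusted p = 0.0221). That call was lost whenever any of the 4 libraries behind it was left out (adjusted p of 0.0591 to 0.103).

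**Figure D3:**
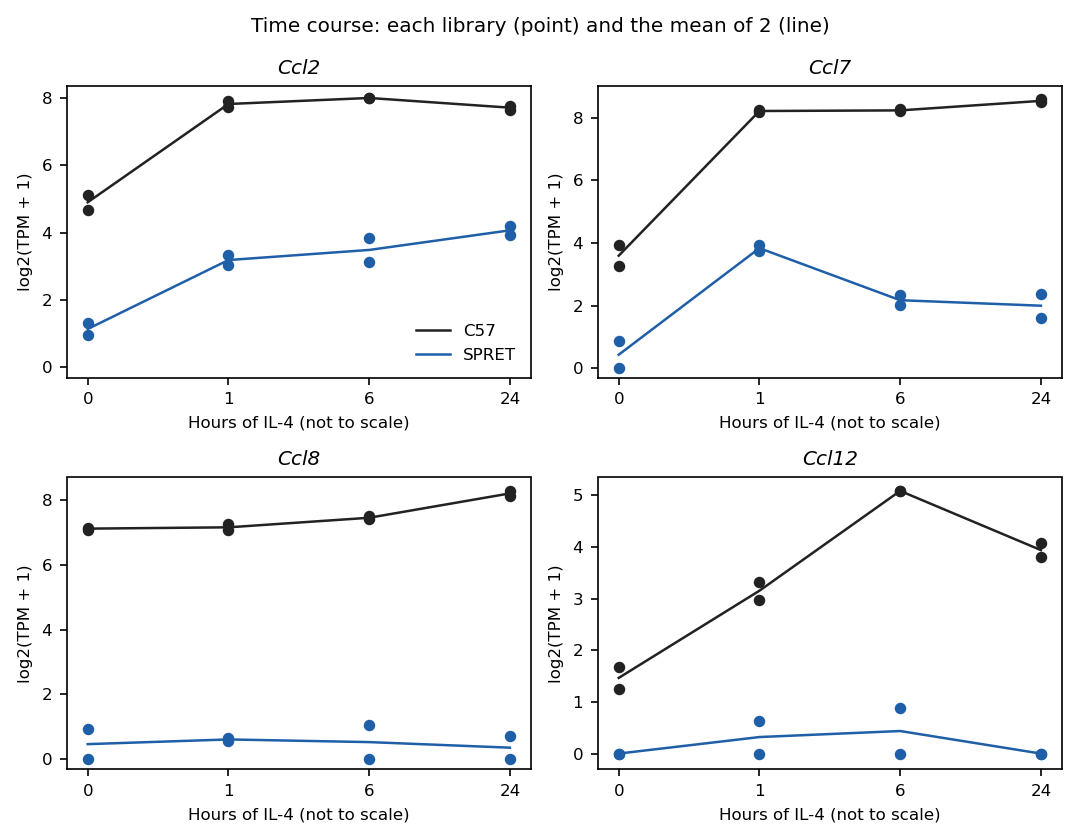
log2(TPM + 1) (y) of the 4 genes in C57 and SPRET cells at 0, 1, 6 and 24 hours of IL-4 (x, not to scale), each library as a point and the mean of 2 as a line. Ccl2 and Ccl7 reach a plateau after 1 hour in C57, Ccl12 peaks at 6 hours, Ccl8 is highest at 24 hours, and SPRET lies below C57 in all panels.

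SPRET was lower than C57 for all 4 genes at all 4 times, 16 of 16 tests, where 18.8% of genes were called without IL-4, 19.5% after 1 hour, 18.6% after 6 hours and 20.5% after 24 hours. The differences ran from -1.46 for basal Ccl12 to -7.84 ± 0.34 for Ccl8 at 24 hours (adjusted p = 6.72e-10). Of 12 differences in response, 4 were called, all of them a smaller response in SPRET. These were Ccl7 and Ccl12 at 6 hours (-2.90 ± 0.41 and -3.18 ± 0.38) and at 24 hours (-3.38 ± 0.41 and -2.47 ± 0.38), against 0.811%, 2.4% and 6.22% of all genes at 1, 6 and 24 hours. The response of Ccl2 at 24 hours differed by 0.12, with an interval from -0.54 to 0.78. These 4 calls rest on the pseudocount, with 0 called at 0.1 TPM and 8 at 5 TPM. Leaving out the second SPRET library at 6 hours gave 7.

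The tables hold separate sets of libraries, so levels are set side by side with no test. Ccl8 in C57 after 24 hours had a mean of 1154 TPM in the strain table and 293 TPM in the time course, and basal C57 60.3 and 137 TPM. In SPRET after 24 hours, Ccl8 had 9.28 and 0.324 TPM and Ccl12 11.3 TPM in the strain table while it was listed at 0 in the time course. The mean of Ccl2 was 106 and 208 TPM in C57 and 3.88 and 15.8 TPM in SPRET. The low level in SPRET against C57 was therefore seen in both tables, and the induction of Ccl8 and Ccl12 in SPRET in the strain table alone. For each gene, the log2 rise in C57 at 24 hours was smaller in the time course. It was 4.23 and 1.09 for Ccl8 and 4.57 and 2.47 for Ccl12, strain table first. For Ccl2 it was 3.65 and 2.81 and for Ccl7 5.43 and 4.95. The response of SPRET minus C57 at 24 hours was called in both tables for Ccl7 (-3.42 and -3.38) and Ccl12 (-1.46 and -2.47). For Ccl2 (-1.88 and 0.12) and Ccl8 it was called in the strain table alone. With a pseudocount of 0.1 TPM, Ccl12 was called in neither table (-0.43 and -2.97). Ccl7 in the time course (-1.73) and Ccl2 in the strain table (-0.82) were then not called either.

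The Egr2 table was checked on Egr2 first. Egr2 was at 21.3 and 23.6 TPM in basal Egr2WT and at 99.5 and 101 TPM after 24 hours of IL-4, against 0.854 and 0.859 TPM and 4.72 and 7.05 TPM in Egr2MKO. It was lower in Egr2MKO at each of the 4 times, by 3.66 to 4.18 on the log2 scale. Each of these differences was called, with an adjusted p of 1.44e-07 or less in limma.

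All 4 genes stood apart between the genotypes after 24 hours, and the times before that differed from gene to gene. Ccl2, in which the difference came last, was at 20.8 and 18.02 TPM in basal Egr2WT and at 16.4 and 19.8 TPM in basal Egr2MKO. After 1 hour it stood at 111 and 122 TPM in Egr2WT and at 122 and 125 TPM in Egr2MKO, and after 6 hours at 132 and 134 against 147 and 169 TPM. At 24 hours, Egr2WT had 208 and 233 TPM and Egr2MKO 437 and 599 TPM. For Ccl2, the last time alone showed a gap between the genotypes wider than the spread within each. Ccl7 went from 4.64 and 6.65 TPM in Egr2WT and 8.55 and 6.08 TPM in Egr2MKO to 198 and 218 TPM and 598 and 710.0 TPM. In between, it was at 118 and 132 against 159 and 173 TPM after 1 hour, and at 127 and 169 against 213 and 229 TPM after 6 hours. The mean of Ccl7 was the higher one in Egr2MKO at each time.

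Ccl8 showed the widest gap. Basal libraries had 15.6 and 18.8 TPM in Egr2WT and 25.4 and 21.7 TPM in Egr2MKO, and after 1 hour they had 12.2 and 12.7 against 21.8 and 20.7 TPM. By 6 hours it was at 33.7 and 21.9 TPM in Egr2WT and at 79.2 and 57.02 TPM in Egr2MKO. After 24 hours Egr2WT had 140.4 and 139.7 TPM and Egr2MKO 972 and 950.0 TPM. The mean of Ccl8 was the higher one in Egr2MKO at each time. Ccl12 began at 0.514 and 0.994 TPM in Egr2WT and at 0.526 and 1.45 TPM in Egr2MKO, from 2 to 8 reads. It reached 5.30 and 4.67 against 6.52 and 7.80 TPM after 1 hour, 13.8 and 22.9 against 30.0 and 38.4 TPM after 6 hours, and 40.5 and 47.7 against 139 and 127 TPM after 24 hours. The second Egr2MKO library at 6 hours held only 34 reads of Ccl8 and 24 of Ccl12.

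**Figure D4:**
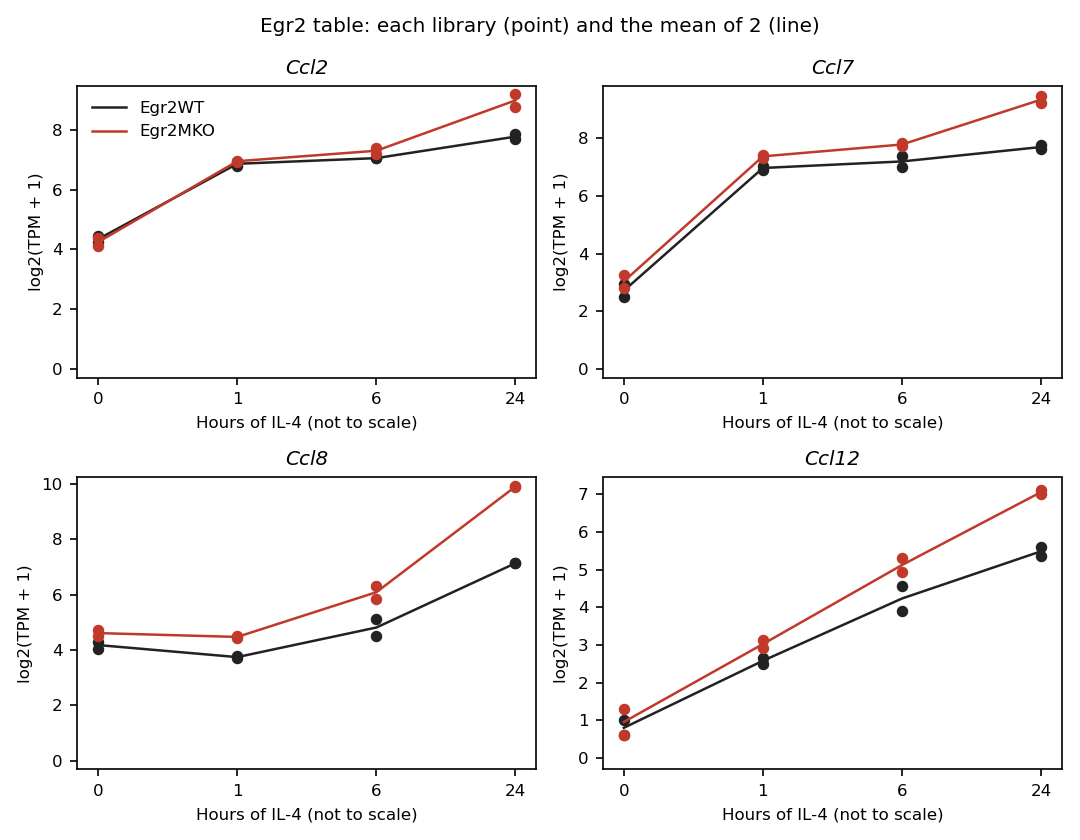
log2(TPM + 1) (y) of the 4 genes in Egr2WT and Egr2MKO cells at 0, 1, 6 and 24 hours of IL-4 (x, not to scale), each library as a point and the mean of 2 as a line. At 24 hours all 4 genes are higher in Egr2MKO, Ccl8 most, and Ccl8 is higher in Egr2MKO at the other times as well.

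Of 16 tests between the genotypes, 5 were called, and Egr2MKO was higher in each. All 4 genes were called at 24 hours, where 4.55% of the 12079 genes tested were, Ccl8 at 6 hours, where 2.3% were, and no gene without IL-4 or after 1 hour, where 0.853% and 1.06% were. Under 2-fold, Egr2MKO was also higher for Ccl8 at 1 hour (0.73, adjusted p = 0.0195) and for Ccl7 (0.59, adjusted p = 0.0335) and Ccl12 (0.89, adjusted p = 0.0264) at 6 hours. At 24 hours, Ccl8 was higher by 2.77 ± 0.18 (adjusted p = 1.97e-07), Ccl7 by 1.64 ± 0.17 (adjusted p = 1.56e-05), Ccl12 by 1.57 ± 0.25 (adjusted p = 0.000397) and Ccl2 by 1.22 ± 0.13 (adjusted p = 2.28e-05), beside a median over all genes of 0.12. The call on Ccl2 was lost without the second Egr2MKO library at 24 hours, at 0.99, and that on Ccl8 at 6 hours without the second Egr2WT library, at 0.98. The response at 24 hours differed between the genotypes for all 4 genes, where 1.9% of genes were called. It was larger in Egr2MKO by 2.34 ± 0.25 for Ccl8 (adjusted p = 9.36e-05), by 1.42 ± 0.35 for Ccl12 (adjusted p = 0.0212) and by 1.32 for both Ccl2 (± 0.19, adjusted p = 0.000777) and Ccl7 (± 0.25, adjusted p = 0.00404). The call on Ccl12 was lost when any of 4 single libraries was left out (adjusted p of 0.0708 to 0.0822). It was also lost with a pseudocount of 0.1 TPM (1.33, adjusted p = 0.145) and with quantile normalization (1.27, adjusted p = 0.0515). No response difference was called at 1 or 6 hours, where 0.00828% and 0.207% of genes were.

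Over both genotypes, 21 of 24 tests against basal were called, all of them rises, 10 in Egr2WT and 11 in Egr2MKO. Ccl2, Ccl7 and Ccl12 were called at each time in both, where 0.778%, 2.86% and 4.35% of genes were called in Egr2WT and 0.902%, 3.7% and 4.83% in Egr2MKO at 1, 6 and 24 hours. The call on Ccl12 in Egr2WT at 1 hour was lost with a pseudocount of 5 TPM (0.80), and its basal values rest on 2 and 3 reads. Ccl8 rose at 24 hours in Egr2WT (2.96 ± 0.18) and at 6 and 24 hours in Egr2MKO (1.48 ± 0.18 and 5.30 ± 0.18). From 6 to 24 hours, Ccl2 and Ccl7 rose further in Egr2MKO (1.69 ± 0.13 and 1.56 ± 0.17), in a step that called 1.76% of genes, and were at 0.72 and 0.50 in Egr2WT, where 2.02% were called. From 1 to 6 hours, Ccl8 and Ccl12 rose in both genotypes, where 2.0% of genes were called in Egr2WT and 2.64% in Egr2MKO. The sum of the 4 genes at 24 hours was 612 ± 36.6 TPM in Egr2WT and 2266 ± 171 TPM in Egr2MKO (SD, n = 2 each). The neutrophil markers summed to 18.9 to 20.8 TPM in Egr2WT and 10.8 to 16.3 TPM in Egr2MKO at that time, and those of fibroblasts to under 1 TPM in both.

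In the F1 cells of C57 and SPRET, where both alleles share 1 nucleus, the SPRET allele of Ccl2 had the higher value in every library. The deposited values weight the expression of a gene by the reads that overlap variants of each allele. After IL-4, Ccl2 had 55.0 and 50.8 on the C57 allele and 153 and 134 on the SPRET allele in the 2 libraries, and without IL-4 6.06 and 6.88 against 24.9 and 15.4. The log2 ratio of C57 over SPRET, with 1 added to each value, was -1.42 ± 0.06 after IL-4 and -1.47 ± 0.58 without it (SD, n = 2). Between the parental strains, the same difference was 4.44 and 2.56 in the other direction. Ccl7 had 17.3 and 38.8 on the C57 allele and 42.3 and 44.8 on the SPRET allele after IL-4, a log2 ratio of -0.72 ± 0.73, against 5.63 between the parents. Without IL-4, Ccl7 was listed at 0 on both alleles in 1 library and at 0.791 and 1.68 in the other. The values of Ccl8 and Ccl12 never passed 2.34 and 0.809 on either allele and rested on at most 4 of the smallest steps in the table, so their ratios, 0.89 ± 1.202 and 0.44 ± 0.59 after IL-4 (SD, n = 2), carry no direction. All 4 genes were listed at 0 for both alleles in every library of C57 x NOD, where 78.9% to 83.6% of all values of a column are 0. With 2 libraries in each group no test was made.

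**Figure D5:**
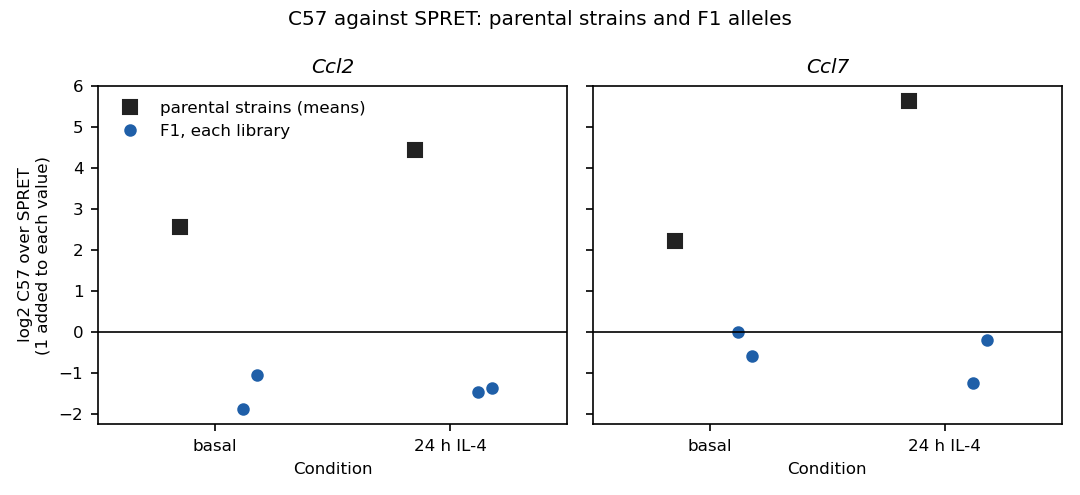
log2 ratio of C57 over SPRET (y, 1 added to each value) for Ccl2 and Ccl7 without IL-4 and at 24 hours of it (x), for the means of the parental strains (squares) and each F1 library (circles). Squares lie above 0 in both panels and no circle does, with a Ccl7 library at exactly 0 without IL-4.

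Among receptors of chemokines, Ccr1, Ccr2 and the atypical receptor Ccrl2 passed the filter in the strain table, and Ccr3, Ccr8 and the scavengers Ackr1 and Ackr2 did not. Ccr2 was low there, with mean levels of 0.07 to 3.01 TPM. In the Egr2 table it had a basal mean of 35.1 TPM in Egr2WT and 24.1 TPM in Egr2MKO, and it fell after 6 hours (-1.19 and -1.52) and 24 hours (-1.81 and -1.45) in both. In the time course, Ccr2 fell in SPRET, from a mean of 5.63 TPM, at 6 and 24 hours (-1.59 and -2.15). In the strain table, Ccr1 rose with IL-4 in C57, PWK and SPRET (1.35, 1.83 and 1.195). None of Ccr1, Ccr2 and Ccrl2 was called in the strain table for a response different from that of C57. Ccr8 stayed at a mean of at most 0.02 TPM in the 3 tables. Ccr1 was lower in Egr2MKO than in Egr2WT at all 4 times, by 1.69 without IL-4 up to 2.13 at 24 hours, and its response at 24 hours was not called as different (-0.44, adjusted p = 0.144). Ccr3 was higher in Egr2MKO at 24 hours (1.18, adjusted p = 0.00118).

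A second group of CC chemokine genes on chromosome 11, Ccl3, Ccl4, Ccl5, Ccl6 and Ccl9, was measured in the same libraries. After 24 hours of IL-4, Ccl6 and Ccl9 rose in C57, BALB and SPRET, by 1.41 to 5.59, and Ccl3, a ligand of Ccr1, fell in BALB (-1.17), NOD (-1.92) and PWK (-1.90). Ccl4 fell in NOD (-1.27), and Ccl5 was called in no strain. The median change over the 5 genes was 0.31 in C57 and -0.79 in NOD. Like Ccl2 and Ccl7, Ccl3, Ccl4 and Ccl5 were higher in basal NOD than in basal C57, by 3.24, 3.10 and 1.81. At 24 hours, Egr2MKO was higher than Egr2WT for Ccl3 (1.28) and Ccl4 (1.82) and lower for Ccl6 (-1.52). Within 250 kb of the 4 members, the listed neighbours were Asic2, 5530401A14Rik, Ccl11 and Ccl1, of which none passed the filter in any table, and Ccl11, which lies between Ccl7 and Ccl12 and encodes an attractant of eosinophils, was listed at 0 in all 29 libraries of the strain table.

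Over the 29 libraries of the strain table, Ccl2 and Ccl7 had a Pearson r of 0.975 on the log2 scale. The other pairs lay between 0.693 for Ccl2 with Ccl8 and 0.828 for Ccl7 with Ccl12. In the time course, r of Ccl2 and Ccl7 was 0.957, and it was 0.982 in the Egr2 table, over 16 libraries each. Libraries of a group share strain and treatment, so these values are descriptions. Among the 11907 genes tested, those most like Ccl2 were Mmp13, a collagenase (0.981), Ccl7 and Srgn, a proteoglycan of secretory granules (0.935). For Ccl7 they were Ccl2, Mmp13 (0.943) and Hsph1, a heat shock protein (0.935). Ccl8 was most like Slc30a4, a zinc transporter (0.965), Cd300lf, a myeloid surface receptor (0.959), and Olr1, a receptor of oxidised lipoprotein (0.947). Ccl12 was most like Hbegf, a growth factor (0.938), Metrnl, a secreted protein (0.929), and Ripk2, a kinase of innate sensing (0.890).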

How the data were processed

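The authors aligned 75-base single-end reads of dUTP-marked, poly(A)-selected libraries with STAR to the genome of each strain, moved positions to mm10 with MMARGE, and made the deposited TPM values with HOMER over exons, 1 row per gene. The deposited fold changes and p-values of the authors' own DESeq2 comparisons, and a human table with 8 columns that match none of the samples, were not used. The F1 values were made by the authors from expression weighted by reads over variants of each parent; their depth is unknown.

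Each TPM table was fitted with limma 3.58.1 in R 4.3.3 on log2(TPM + 1), 1 mean per group, empirical Bayes with trend, and Benjamini-Hochberg adjustment over all genes tested; genes had to reach 1 TPM in 2 or more libraries. No count test was run, since TPM are not counts, although 87.9% to 93.1% of low values in a library lie within 0.1 of a whole number of reads. Intervals are 95%, and floors of 3 reads cover counting error only. The procedure was also run on data simulated with 200 changed genes, and the outcome is not reported here. Plots came from matplotlib 3.10.9 (Python 3.11.15).

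Named genes are the 4 members, genes within 250 kb, fixed lists of receptors, of other CC chemokines and of cell type markers, the 3 genes most like each member, and Egr2. Part of the receptor list is not reported here. The members and lists were chosen with earlier results of these data known. Alternatives were other pseudocounts, no filter, 2 other scalings, smaller models, a replicate block, left-out libraries and a 1.5-fold threshold. Replicate numbers were not used as pairs. Residuals of libraries with the same number had a mean r of 0.035, 0.041 and -0.019 in the 3 tables. In BALB all values were positive (0.0887 to 0.333), so this check cannot exclude pairing.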

Additional observations from a re-analysis of the deposited data

Results flagged for a closer look

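The response to IL-4 was compared between groups by an interaction in the limma model. For the members these were 16 tests of other strains against C57, 12 of SPRET over time and 12 of Egr2MKO against Egr2WT. Among all genes, such comparisons called 1.49% to 3.45%, 0.811% to 6.22% and 0.00828% to 1.9% in the same order. Of the member differences, 23 had an adjusted p under 0.05, of which 22 were also over 2-fold. None was weighed further. All values are differences of log2 changes. For BALB minus C57 they were -1.71 for Ccl2, -2.66 for Ccl7, -2.85 for Ccl8 and -2.03 for Ccl12. For NOD minus C57 they were -2.67, -4.56, -1.65 and -3.31 in the same order, and for SPRET minus C57 -1.88, -3.42, -2.45 and -1.46, of which those of Ccl2 and Ccl12 were -0.82 and -0.43, and not called, with a pseudocount of 0.1 TPM. PWK minus C57 gave -1.35 for Ccl2, -2.69 for Ccl7 and 0.90 for Ccl8, the last under 2-fold.

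In the time course, SPRET minus C57 was -2.90 for Ccl7 and -3.18 for Ccl12 at 6 hours, and -3.38 and -2.47 at 24 hours. Egr2MKO minus Egr2WT at 24 hours was 1.32 for Ccl2, 1.32 for Ccl7, 2.34 for Ccl8 and 1.42 for Ccl12. With a pseudocount of 0.1 TPM, this value of Ccl12 and those of the time course were not called. Groups of 2 or 3 libraries are too small for a test of single outlying libraries.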

How the results depend on the processing

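Of the counts of calls, 3 moved by over 1.5 times. The 4 response differences of the time course became 0 with a pseudocount of 0.1 TPM and 8 with 5 TPM, and ranged from 4 to 7 when single libraries were left out, an alternative chosen after seeing the data. The 15 basal differences from C57 became 9 with a pseudocount of 5 TPM, and the 5 differences between Egr2MKO and Egr2WT became 8 at a 1.5-fold threshold. Among the values of single genes, 2492 stayed on their side of the threshold under an alternative, 38 lost a call, 24 gained one and 23 turned their sign, none of them called in the fit reported. With a pseudocount of 0.1 TPM, the response difference of Ccl12 in PWK was 0.33 and that of Ccl7 in SPRET at 1 hour 0.73. With 5 TPM, those of Ccl8 at 1 hour and Ccl2 at 24 hours in SPRET were -0.0151 and -0.91. Quantile normalization gave -0.0096 for Ccl8 in C57 at 1 hour. Leaving out single libraries gave -0.11 to 0.35 for the response difference of Ccl2 at 24 hours in SPRET, -0.36 to 0.57 and -0.80 to 0.26 for those of Ccl8 at 1 and 6 hours, and -0.0563 to 0.14 for Ccl8 in C57 at 1 hour. For Ccl8 in SPRET it gave -0.32 to 0.61 at 1 hour, -0.47 to 0.59 at 6 hours and -0.58 to 0.36 at 24 hours. Between Egr2MKO and Egr2WT it gave -0.23 to 0.0282 for basal Ccl2, -0.19 to 0.50 for basal Ccl12, and -0.14 to 0.30 and -0.0537 to 0.63 for the response of Ccl7 and Ccl12 at 1 hour. An F1 offset of 0.1 moved the C57 over SPRET ratio after IL-4 from 0.89 to 2.33 for Ccl8 and from 0.44 to 1.62 for Ccl12, both resting on 1 to 3 of the smallest steps against 0 in 1 library. The cause was not tested.

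Replicate numbers are not stated to mark shared animals, and they were not taken as pairs. Residuals of libraries with the same number had r of -0.085 to 0.333 in the strain table, -0.143 to 0.266 in the time course and -0.139 to 0.038 in the Egr2 table. These values cannot exclude pairing. With the replicate block, the counts of calls were 18, 15, 14, 14, 16, 16, 4, 21, 5 and 4, equal to those without it. The block gives a replicate number the same effect in all groups of a table, so it cannot test pairing within a strain or genotype. Another scaling shifted the median of all genes by up to 0.30, for basal NOD against C57. Values under 1 TPM rest on at most 10 reads here and set the limit on Ccl8 and Ccl12 in SPRET.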
